A study of Mus musculus with 21 samples.

Results

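The genes described here are 10 genes of bile acid synthesis and transport in mouse liver: Cyp8b1, Cyp27a1, Cyp7b1, Hsd3b7, Akr1d1, Slc27a5, Baat, Slc10a1, Abcb11 and Nr0b2. They were chosen by name, through the transcript accession of each array probe, and all 10 were on the array and above background in liver on 21 of 21 arrays. They are 10 of the 17640 features tested, of which 11255 carried a gene symbol. Baat had 2 probes, and the other genes had 1 each.

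Livers came from female C57BL/6 mice bought at 5 to 7 weeks of age and kept for 1 to 3 weeks before a single instillation into the trachea. The groups were 6 mice given 162 µg of titanium dioxide nanoparticles (TiO2) and examined at day 1, 5 control mice at day 1, 6 TiO2 mice at day 28, and 4 control mice at day 28. Controls received the vehicle alone, saline with 10% lavage fluid, freed of cells, from the lungs of untreated mice, and every mouse had the same volume of 40 µl under Hypnorm and Dormicum anaesthesia. Each array held the RNA of 1 mouse in Cy5 and a reference RNA pooled from mouse cell lines in Cy3, so every value below is a log2 ratio of liver over reference RNA, and a difference of 1 is a change of 2-fold.

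Hepatocytes make bile acids from cholesterol by a neutral route that Cyp7a1 opens and an acidic route that Cyp27a1 opens. They join them to taurine, pump them into bile and take them up again from portal blood. Bile acids limit their own synthesis: they bind the nuclear receptor FXR (Nr1h4), which induces Nr0b2, a repressor of Cyp7a1 and Cyp8b1.

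The 250 bases before the transcription start, from RefSeq on build GRCm38.p6, were held for 7 of the 10 genes. The 3 shown belong to genes set against each other over the mice further on: Abcb11, the exporter of bile acids and the gene with the widest spread, Cyp8b1, the hydroxylase with the widest spread, and Nr0b2, the repressor. They are written 5′ to 3′ on the strand of the gene and end at the base before the start. Capitals mark a match to 1 of the 4 motifs searched on both strands. The Abcb11 window is chr2:69342617-69342866 on the minus strand, that of Cyp8b1 is chr9:121916306-121916555 on the minus strand, and that of Nr0b2 is chr4:133553126-133553375 on the plus strand.
Abcb11: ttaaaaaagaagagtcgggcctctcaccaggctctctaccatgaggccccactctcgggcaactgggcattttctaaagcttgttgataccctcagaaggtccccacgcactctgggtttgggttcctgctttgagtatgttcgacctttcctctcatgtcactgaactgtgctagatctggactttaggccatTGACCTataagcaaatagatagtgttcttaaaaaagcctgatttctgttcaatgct
Cyp8b1: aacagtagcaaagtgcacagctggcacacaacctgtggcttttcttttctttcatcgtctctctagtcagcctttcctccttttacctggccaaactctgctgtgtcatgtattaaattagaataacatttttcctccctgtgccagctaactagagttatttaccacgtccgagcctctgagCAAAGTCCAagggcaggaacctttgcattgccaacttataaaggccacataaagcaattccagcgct
Nr0b2: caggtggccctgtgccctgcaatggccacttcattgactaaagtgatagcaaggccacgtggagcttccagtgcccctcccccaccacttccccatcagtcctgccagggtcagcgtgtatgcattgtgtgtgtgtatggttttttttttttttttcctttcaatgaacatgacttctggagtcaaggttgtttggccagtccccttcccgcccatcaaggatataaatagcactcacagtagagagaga

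The capitals in Abcb11 are TGACCT, the reverse complement of the nuclear receptor core motif AGGTCA, and begin 56 bases before the start. That core motif occurred in 14% of the windows of 32851 promoters, and also in Akr1d1 and Slc10a1. The capitals in Cyp8b1 are CAAAGTCCA, a site of the kind bound by HNF4A, 67 bases before the start, which 0.384% of all windows held. Nr0b2 had no match to any of the motifs. None of the 7 held the FXR inverted repeat of that core (0.00609% of windows) or CAAGGTCA (1.33%), which contains the core. These are matches of letters, and no binding was measured.

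Of the 10 hepatocyte markers on the array, 10 were above background on every array, and their median log2 ratio lay between 5.42 and 6.93. The extraction protocol names lung, and the labels name liver. The 10 lung markers had a median ratio between -0.14 and 0.11, with 2 to 8 of them detected per array. Of these 10, 7 had a probe kept for testing. Ager, a defining marker of alveolar epithelium, was above background on 0 arrays, and it was alone among the 10 in this. Bulk RNA cannot tell fewer cells of a type from less RNA per cell. The labels call the samples biological replicates, and each array held the RNA of a single mouse.

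The 6 arrays scanned on the first of 3 scan days stood apart from the other 15, and each scan day held all 4 groups. Of the 10 genes, 7 differed between scan days (limma, adjusted p under 0.05, with group in the model), against 56.6% of all features tested. Scan day was tested after the data had been seen. Each p tests the 3 scan days together, and the difference of the first from the others was not tested by itself. Abcb11 ran from 4.28 to 5.68 on the first scan day and from 7.05 to 7.82 on the others, a mean difference of -2.54 (adjusted p = 5.69e-09). Its 2 ranges did not overlap, and only 2 of the 17640 features had a lower difference.

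Slc27a5 showed the same separation, at 4.15 to 5.15 on the first scan day and 5.86 to 6.43 on the others (difference -1.47, limma adjusted p = 1.91e-08). By its brighter probe, Baat ran from 5.13 to 6.22 on the first scan day and from 6.28 to 6.93 on the others. The difference was -0.78 (limma adjusted p = 2.09e-05). With the brightest probe for each gene, these 3 were the only members whose values split by scan day without overlap. The dimmer Baat probe did not split, at 2.57 to 3.76 on the first scan day and 2.43 to 3.61 on the others. Its means on the 3 scan days in turn were 3.20, 3.23 and 2.87. The share of all features that split without overlap was not counted, so the split is not shown to be particular to these 3 genes. Cyp8b1, Slc10a1 and Hsd3b7 overlapped between scan days but had lower means on the first, by -0.67, -0.32 and -0.29. Cyp27a1 had a higher mean there, by 0.42. Each had an adjusted p under 0.05 by limma over the 3 scan days together. The means on the 3 scan days in turn were 4.76, 4.82 and 5.37 for Slc10a1, where the third stood apart. For Cyp27a1 they were 2.96, 2.35 and 2.75, where the second was lowest. Cyp7b1, Akr1d1 and Nr0b2 did not pass, with differences of 0.15, -0.08 and 0.02.

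Each dye was also read by itself. For Abcb11, the liver channel alone differed by -1.57 on the log2 scale on the first scan day, and the reference channel by 0.88. For Slc27a5 the liver channel differed by -0.44 and the reference channel by 0.95. For Slc10a1 both channels were higher, by 0.35 in liver and 0.53 in the reference. Each channel was normalized by itself here, so the 2 differences need not add up to that of the ratio. The hepatocyte marker median moved along with these genes, at 5.42 to 5.81 on the first scan day, 6.24 to 6.74 on the second and 6.60 to 6.93 on the third, and its part in the result was not tested.

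**Figure D1:**
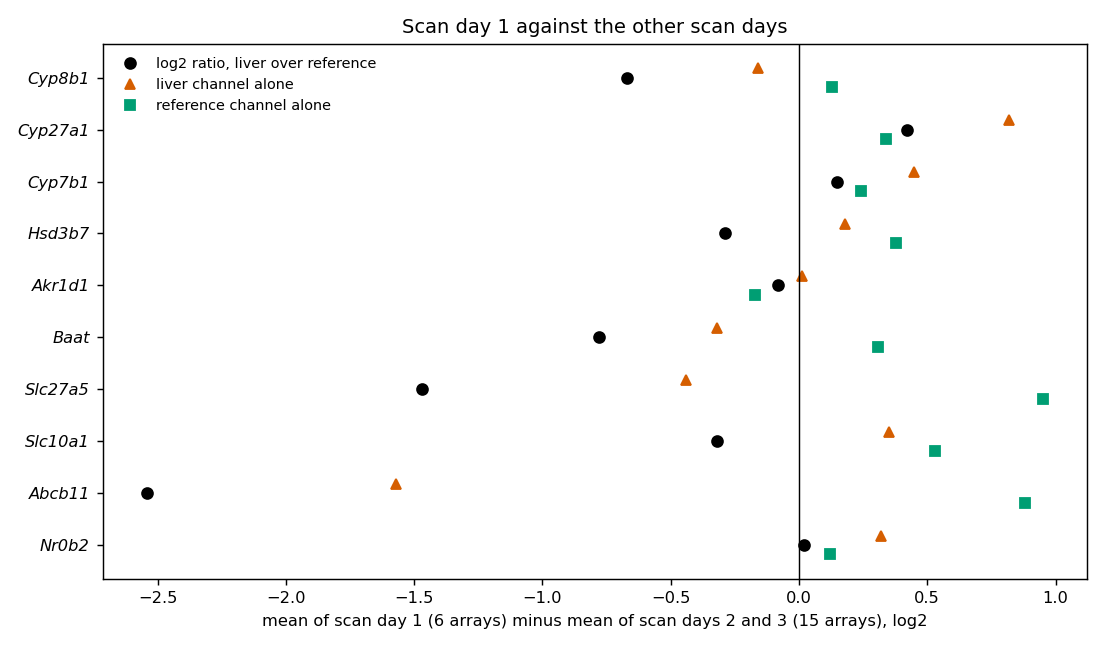
Mean of the 6 arrays of the first scan day minus the mean of the other 15 (x axis, log2) for each gene (y axis), for the log2 ratio of liver over reference (circles), the liver channel alone (triangles) and the reference channel alone (squares). Abcb11, Slc27a5 and Baat lie farthest to the left, at -2.54, -1.47 and -0.78 in the ratio. Baat is shown by its brighter probe only.

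At day 1, none of the 10 genes passed a test between TiO2 and control mice: 0 passed an adjusted p of 0.05 in limma, 0 an unadjusted p of 0.05, and 0 had groups that did not overlap. Over all features tested, the adjusted p passed 0%, the unadjusted p 1.73% (306 features), and 0.108% had groups that did not overlap. The median difference of the 10 genes was -0.102, with 4 above 0, against a median of -0.006 over all features, of which 52.2% lay below 0. The smallest p among the genes was that of Nr0b2 (unadjusted 0.156 by limma), and with the scan day as a block it was again 0 genes at an unadjusted p of 0.05, against 4.09% of features. With the slide as a block, Nr0b2 alone of the 10 had an unadjusted p under 0.05 in limma, against 5.23% of features for a random block and 4.4% for a fixed block. The 95% interval of the difference stayed within 2-fold either way for 7 of 10 genes, and for 9 of 10 with the scan day as a block.

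At day 28 the counts were again 0 genes by the adjusted p, 0 by the unadjusted p and 0 without overlap, against 0%, 0.935% (165 features) and 0.283% of all features by limma. Of the 10 genes, 7 had a difference above 0, and their median was 0.049, against 0.004 over all features. The 95% interval stayed within 2-fold for 6 genes, and for 9 with the scan day as a block, where 0 genes and 3.06% of features had an unadjusted p under 0.05. The day 28 effect minus the day 1 effect passed for 0 genes by either p, against 0% and 0.76% of features (2.99% with the block), and its median was 0.097 over the genes and 0.004 over all features. Of the 10 genes 2 had a change below 0, against 49% of features.

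**Figure D2:**
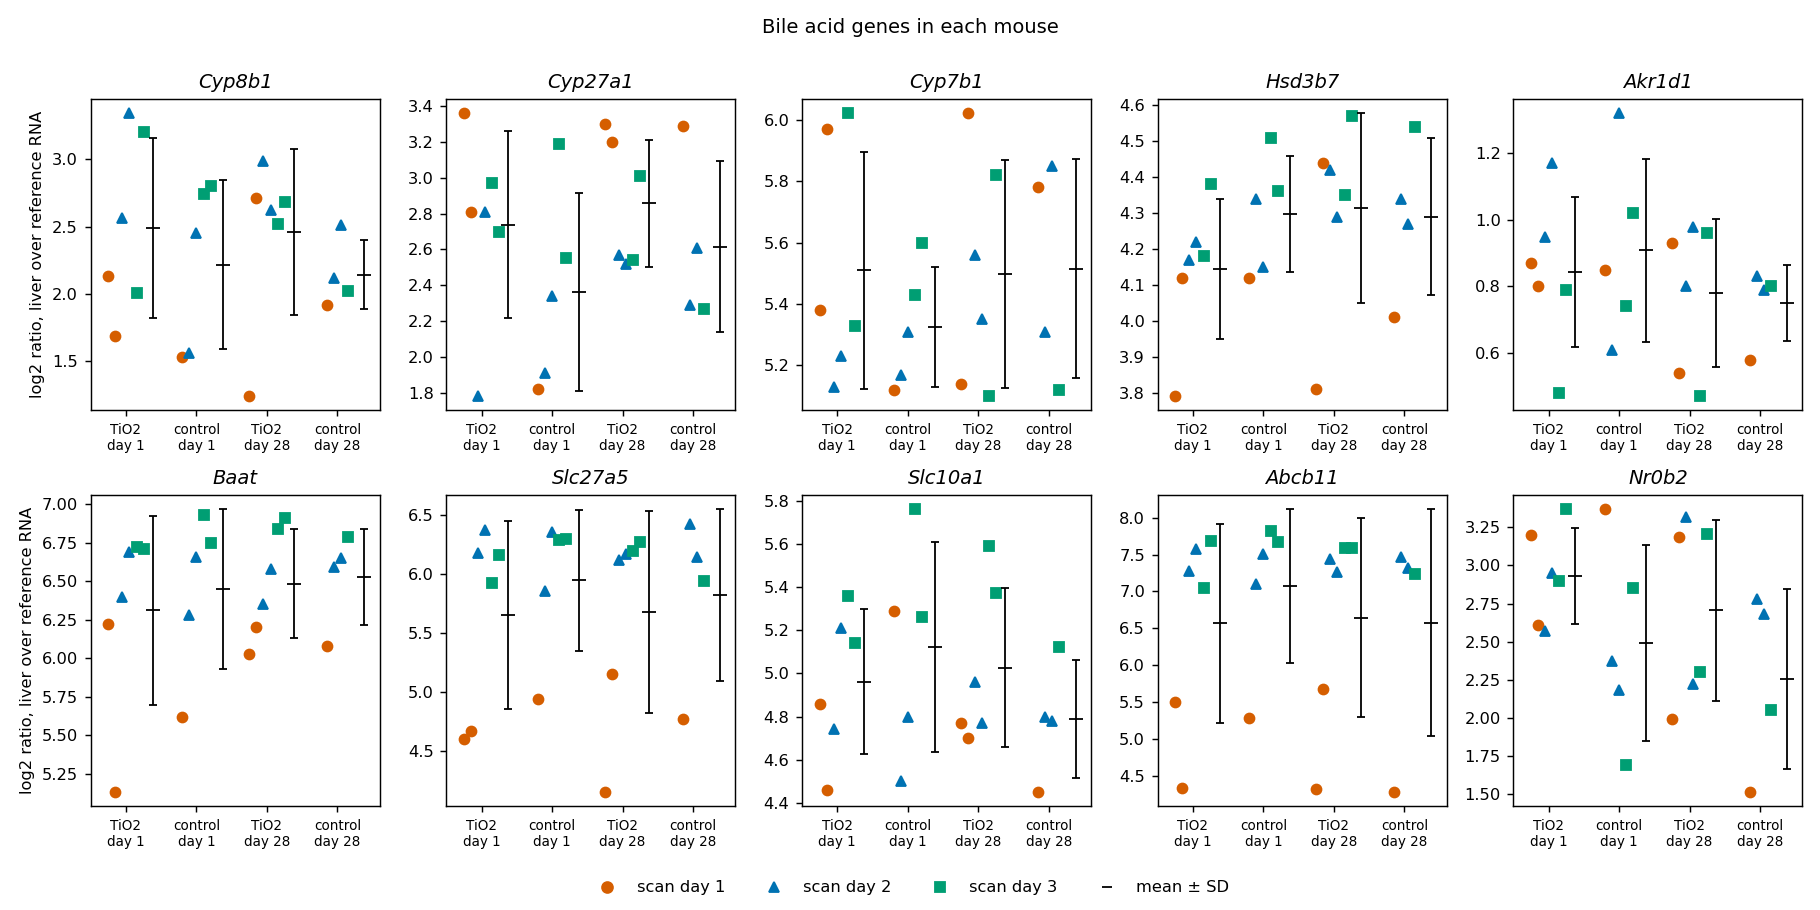
Log2 ratio of liver over reference RNA (y axis, a separate scale for each gene) for each of the 21 mice in the 4 groups (x axis), with circles for the first scan day, triangles for the second and squares for the third, and a dash and bar for the mean ± SD of each group. The groups overlap for all 10 genes, and the circles of Abcb11, Slc27a5 and Baat lie below the other symbols. Baat is shown by its brighter probe only, and its dimmer probe did not split by scan day.

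Among the enzymes, Cyp8b1, the sterol hydroxylase that sets the share of cholic acid among the bile acids, ran from 1.69 to 3.34 in day 1 TiO2 livers (median 2.34), against 1.53, 1.56, 2.45, 2.74 and 2.80 in day 1 controls. The difference was 0.27 ± 0.33 (SE), and 0.37 ± 0.26 with the scan day as a block, and 3 of 6 treated mice exceeded the average control. At day 28 it ran from 1.24 to 2.99 in TiO2 livers (median 2.65), against 1.92, 2.02, 2.12 and 2.51 in controls. The lowest mouse and the highest were both TiO2 mice at that time, and 5 of 6 lay above the control mean, with a difference of 0.32 ± 0.35 (SE). Cyp8b1 was on average 5.09-fold above the reference RNA, but the reference spot was above background on only 3 arrays, so that ratio rests on a dim reference.

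Cyp27a1, the mitochondrial hydroxylase that opens the acidic route, averaged 2.74 ± 0.52 in TiO2 livers and 2.36 ± 0.55 in control livers at day 1 (SD, n = 6 and 5). The values were 1.78 to 3.36 in TiO2 livers (median 2.81), against 1.82, 1.91, 2.34, 2.55 and 3.19 in controls, and 5 of 6 treated mice exceeded the control average. The difference was 0.38 ± 0.27 (SE), but within the 3 scan days in turn it was 1.27, 0.17 and -0.04, and without the first scan day it was 0.07. At day 28 Cyp27a1 ran from 2.52 to 3.30 in TiO2 livers (median 2.79), against 2.27, 2.29, 2.61 and 3.29 in controls, a difference of 0.25 ± 0.28 (SE). The highest values of the TiO2 mice and of the controls were both on the first scan day at that time.

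Cyp7b1, the oxysterol hydroxylase that follows Cyp27a1 on the acidic route, ran from 5.13 to 6.02 in day 1 TiO2 livers (median 5.36), against 5.12, 5.17, 5.31, 5.43 and 5.60 in day 1 controls. At day 28 it ran from 5.10 to 6.02 in TiO2 livers (median 5.46), against 5.12, 5.31, 5.78 and 5.85 in controls. The differences were 0.18 ± 0.19 and -0.02 ± 0.21 (SE). Cyp7b1 spread less within groups than Cyp8b1 and Cyp27a1, with an SD of 0.34 against 0.59 and 0.48. Its reference spot was above background on 7 arrays.

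Hsd3b7 and Akr1d1 act on the sterol ring after the first hydroxylation. In the main processing they had the smallest spread of the enzymes, with a within-group SD of 0.22 each. The median over all features was 0.23. Hsd3b7 ran from 3.79 to 4.38 in day 1 TiO2 livers (median 4.18), against 4.12, 4.15, 4.34, 4.36 and 4.51 in controls, a difference of -0.15 ± 0.13 (SE). Its difference was below 0 within each of the 3 scan days, at -0.16, -0.05 and -0.15. At day 28 Hsd3b7 ran from 3.81 to 4.57 in TiO2 livers (median 4.38), against 4.01, 4.27, 4.34 and 4.54 in controls (difference 0.02 ± 0.14 SE). These groups covered nearly the same range.

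Akr1d1, the reductase that gives the sterol ring its bent shape, ran from 0.48 to 1.17 in day 1 TiO2 livers (median 0.83), against 0.61, 0.74, 0.85, 1.02 and 1.32 in controls. At day 28 it ran from 0.47 to 0.98 in TiO2 livers (median 0.87), against 0.58, 0.79, 0.80 and 0.83 in controls. Its differences were -0.07 ± 0.13 and 0.03 ± 0.14 (SE). The liver channel was above background on all 21 arrays but the reference channel on only 3, and the mean ratio was 1.77-fold. The Akr1d1 values depended on the processing. With the scanner software's own log ratio the differences were -0.794 at day 1 and 0.44 at day 28. Day 28 controls against day 1 controls gave -1.321 there, against -0.161 in the main fit.

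Slc27a5, the ligase that activates bile acids for conjugation, ran from 4.60 to 6.38 in day 1 TiO2 livers (median 6.05), against 4.94, 5.86, 6.29, 6.30 and 6.36 in controls. The lowest mice in either group were those of the first scan day. The difference was -0.30 ± 0.42 (SE), and with the scan day as a block it was -0.10 ± 0.14. At day 28 Slc27a5 ran from 4.15 to 6.27 in TiO2 livers (median 6.15), against 4.77, 5.94, 6.15 and 6.43 in controls, a difference of -0.15 ± 0.45 (SE). With the scan day as a block it was -0.02 ± 0.15.

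Baat, which joins the activated bile acid to taurine, ran from 5.13 to 6.72 in day 1 TiO2 livers (median 6.54), against 5.62, 6.28, 6.66, 6.75 and 6.93 in controls. At day 28 it ran from 6.03 to 6.91 in TiO2 livers (median 6.46), against 6.08, 6.59, 6.65 and 6.79 in controls. The differences were -0.14 ± 0.27 and -0.04 ± 0.28 (SE), and -0.03 ± 0.14 and -0.01 ± 0.15 with the scan day as a block. Leaving out 1 array gave -0.343 to 0.102 at day 1, the highest without TiO2 day 1 replicate 2. Its dimmer probe gave -0.36 ± 0.21 at day 1 and -0.26 ± 0.23 at day 28, the same sign, with the reference above background on 0 arrays.

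Slc10a1, the sodium-dependent carrier that takes bile acids up from portal blood, ran from 4.46 to 5.36 in day 1 TiO2 livers (median 5.00), against 4.50, 4.80, 5.26, 5.29 and 5.76 in controls. At day 28 it ran from 4.70 to 5.59 in TiO2 livers (median 4.86), against 4.45, 4.78, 4.80 and 5.12 in controls. The difference was -0.16 ± 0.21 (SE) at day 1 and 0.24 ± 0.23 at day 28, and the change between them was 0.40 ± 0.31, with an unadjusted p of 0.212 in limma. Within the 3 scan days the day 28 difference was 0.28, 0.08 and 0.37, above 0 in each. The same held for Cyp8b1 and Nr0b2 at day 28, so 3 of the 10 genes kept 1 sign over the scan days. At day 1 it was 1 of the 10, and it was also 1 for the change of the effect and 1 for the control days. The share over all features was not counted, so the 3 are not shown to be more than any genes would give.

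Abcb11, the pump that exports bile salts into the canaliculus, had the widest spread of the 10 genes, a within-group SD of 1.32. It ran from 4.34 to 7.68 in day 1 TiO2 livers (median 7.17), against 5.28, 7.10, 7.51, 7.67 and 7.82 in controls, and from 4.32 to 7.59 in day 28 TiO2 livers (median 7.35), against 4.28, 7.24, 7.32 and 7.47 in controls. Each group held a low cluster, which was its first scan day arrays, and a high one. The day 1 difference was -0.50 ± 0.72 (SE), from -0.95 without control day 1 replicate 1 to -0.055 without TiO2 day 1 replicate 2. With the scan day as a block it was -0.16 ± 0.22, and without the first scan day -0.12. The day 28 difference was 0.07 ± 0.77 (SE), and it was -0.699 without control day 28 replicate 1, the only control of the first scan day at that time. With the block it was 0.26 ± 0.23, with an interval of -0.21 to 0.74.

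**Figure D3:**
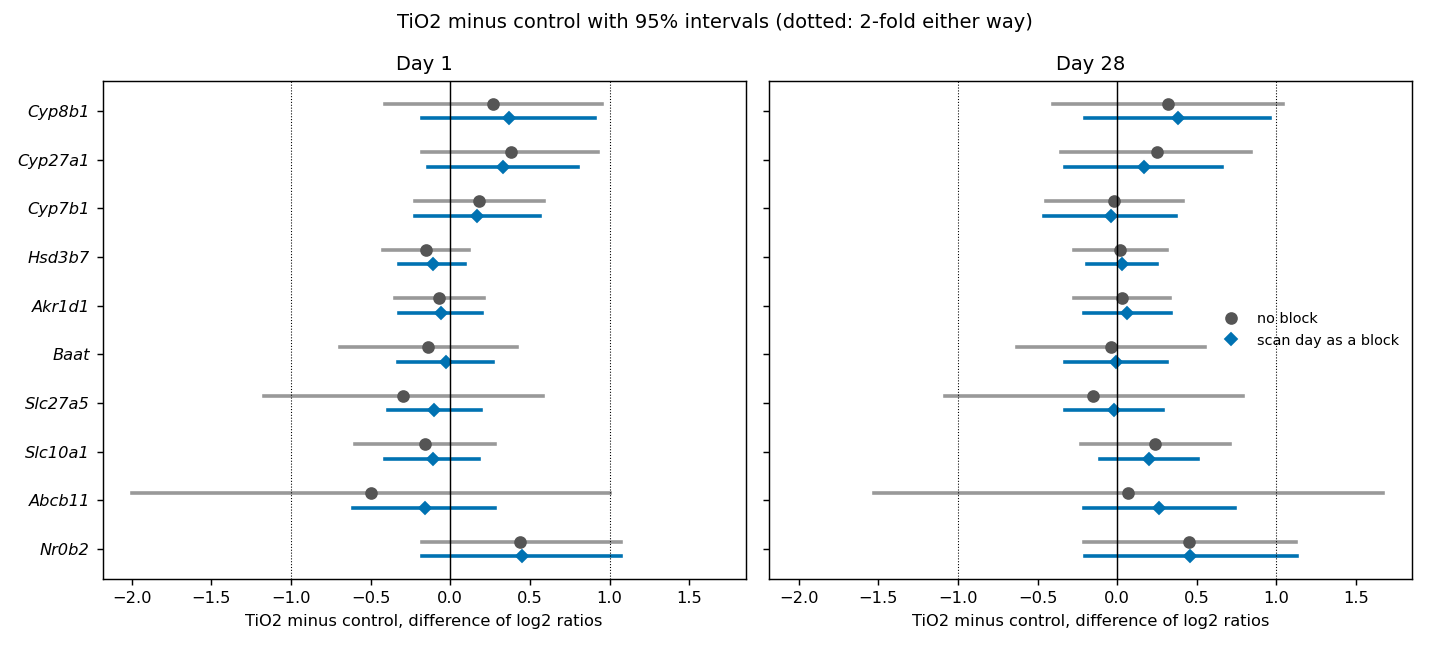
Difference of TiO2 minus control in log2 ratio (x axis) for each gene (y axis) at day 1 (left) and day 28 (right), with 95% intervals, for the fit without a block (grey circles) and with the scan day as a block (blue diamonds). Every interval includes 0, and that of Abcb11 at day 1 is -2.00 to 1.00 without the block and -0.61 to 0.28 with it.

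Nr0b2, the receptor that lacks a DNA-binding domain and represses bile acid synthesis, had the largest positive difference of the 10 genes at either time. It ran from 2.57 to 3.37 in day 1 TiO2 livers (median 2.93), against 1.69, 2.18, 2.37, 2.85 and 3.37 in day 1 controls. All 6 treated mice exceeded the control average of 2.49, but 1 control equalled the highest of them at 2 decimals. The difference was 0.44 ± 0.30 (SE, interval -0.18 to 1.07), and within the scan days it was -0.47, 0.49 and 0.86. Without the third scan day it was 0.193, the lowest of the main fit and 29 alternatives, and leaving out 1 array gave 0.241 to 0.662. Without the first scan day it was 0.68 ± 0.287 (SE), with an unadjusted limma p of 0.0324 and an adjusted p of 1. With the slide as a random block it was 0.52 ± 0.23, with an unadjusted limma p of 0.0337 and an adjusted p of 0.94, and as a fixed block 0.54 ± 0.23, with p-values of 0.03 and 0.953. None of these p-values allows for the number of alternatives tried. At day 28 Nr0b2 ran from 1.99 to 3.32 in TiO2 livers (median 2.75), against 1.51, 2.05, 2.68 and 2.78 in controls, and 4 of 6 treated mice exceeded the control average. The difference was 0.45 ± 0.32 (SE), 0.26 ± 0.31 without the first scan day, with an unadjusted limma p of 0.408 and an adjusted p of 1, and 0.21 ± 0.26 with the slide as a fixed block. Neither time passed the adjusted p.

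Cyp7a1, the rate-limiting enzyme of the neutral route and a target of Nr0b2 repression, averaged 2.91 in TiO2 livers against 4.51 in controls at day 1 (difference -1.59 ± 0.51 SE) and 3.91 against 5.06 at day 28 (difference -1.16 ± 0.54 SE). Neither passed in limma (adjusted p of 1), the day 1 difference was -1.67, -0.53 and -2.77 within the scan days, the other probe of Cyp7a1 gave -0.41 ± 0.34 and -0.56 ± 0.36 (SE), and the reference spot was above background on 9 arrays.

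Among control mice, the 10 genes were compared between day 28 and day 1. None passed: 0 by the adjusted p, 0 by the unadjusted p and 0 without overlap, against 0%, 3.01% (531 features) and 0.686% of all features by limma. The median difference was -0.102, against -0.005 over all features, with 7 of 10 below 0, against 51.4% of features. With the scan day as a block, 0 genes and 7.72% of features had an unadjusted p under 0.05. Slc10a1 was farthest by p, at 4.79 in day 28 controls and 5.12 in day 1 controls (difference -0.33 ± 0.24 SE, unadjusted p = 0.172 by limma), and none of the 4 day 28 controls lay above the day 1 mean. Within the scan days its difference was -0.84, 0.14 and -0.39. With the slide as a fixed block, Akr1d1 alone had an unadjusted p under 0.05 in limma (difference -0.35 ± 0.14 SE, unadjusted p of 0.0244, adjusted p of 0.63), against 7.17% of features.

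Over the 21 mice, with each gene centred on its scan day means, 34 of the 45 pairs of the 10 genes correlated positively, with a median Pearson r of 0.21 and a range of -0.29 to 0.67. Mice share RNA quality and labelling across genes, so these are descriptions of how the values varied together. With Cyp7a1 added, 55 pairs were tested by a permutation test within scan days (100000 resamples, two-sided), and 0 passed an adjusted p of 0.05 by r. Spearman's rho was taken over ranks of the centred values. The permutation p given with each rho came from these ranks centred again on scan day, so it tests a slightly different statistic. Slc27a5 and Abcb11 were the closest pair, with r = 0.67 (permutation p = 0.00546, adjusted 0.101) and a Spearman rho of 0.65 (permutation p = 0.00764, adjusted 0.14). Within the scan days r was 0.61, 0.88 and 0.92, and it was 0.47 without the 2 mice farthest from the median of Slc27a5. Before centring on scan day the same pair had r = 0.97.

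Cyp8b1 and Abcb11 correlated at r = 0.61 (permutation p = 0.00157, adjusted 0.0863) and rho = 0.63 (permutation p = 0.00582, adjusted 0.14). Their r was 0.67, 0.67 and 0.87 within the scan days and 0.50 without the 2 mice farthest from the median of Cyp8b1. Cyp27a1 and Baat had r = 0.56 (permutation p = 0.0682, adjusted 0.407) and were the 1 pair that passed by rank, with rho = 0.76 (permutation p = 0.00039, adjusted 0.0214). Nr0b2 and Abcb11, both induced by FXR in hepatocytes, had r = 0.54 (permutation p = 0.0537, adjusted 0.407) and rho = 0.56 (permutation p = 0.0309, adjusted 0.359). On the third scan day their r was -0.07, and without the 2 mice farthest from the median of Abcb11 it was 0.40.

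**Figure D4:**
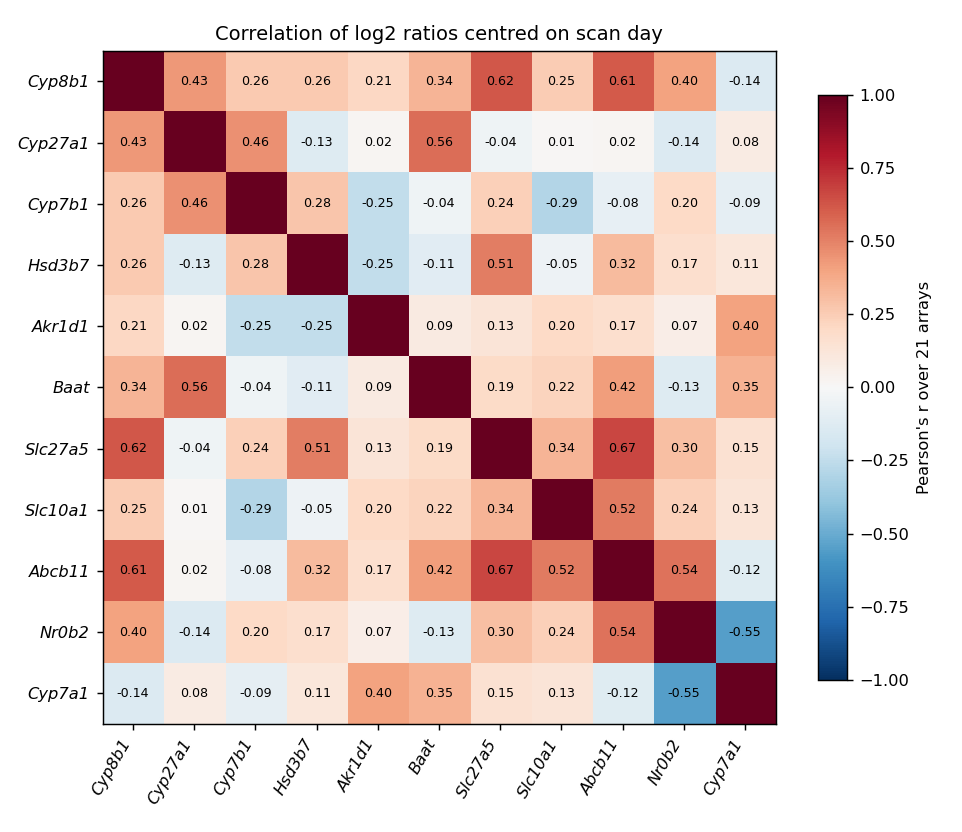
Pearson's r over the 21 mice between the log2 ratios of each pair of the 10 genes and Cyp7a1, centred on scan day means (red positive, blue negative). Slc27a5, Abcb11 and Cyp8b1 form the reddest block, with r of 0.61 to 0.67, and Nr0b2 against Cyp7a1 is the bluest cell at -0.55.

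Nr0b2 and Cyp7a1 correlated negatively, with r = -0.55 (permutation p = 0.024, adjusted 0.33) and rho = -0.49 (permutation p = 0.0455, adjusted 0.359). The r was -0.70, -0.22 and -0.59 within the scan days, -0.37 without the 2 mice farthest from the median of Nr0b2, and -0.37 once group means were also removed. Cyp8b1, the other enzyme that Nr0b2 represses, had r = 0.40 with Nr0b2 (permutation p = 0.0837, adjusted 0.407) and rho = 0.44 (permutation p = 0.0637, adjusted 0.359). Without the 2 mice farthest from the median of Cyp8b1 that r was 0.34. The r of Cyp8b1 with Cyp7a1 was -0.14.

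**Figure D5:**
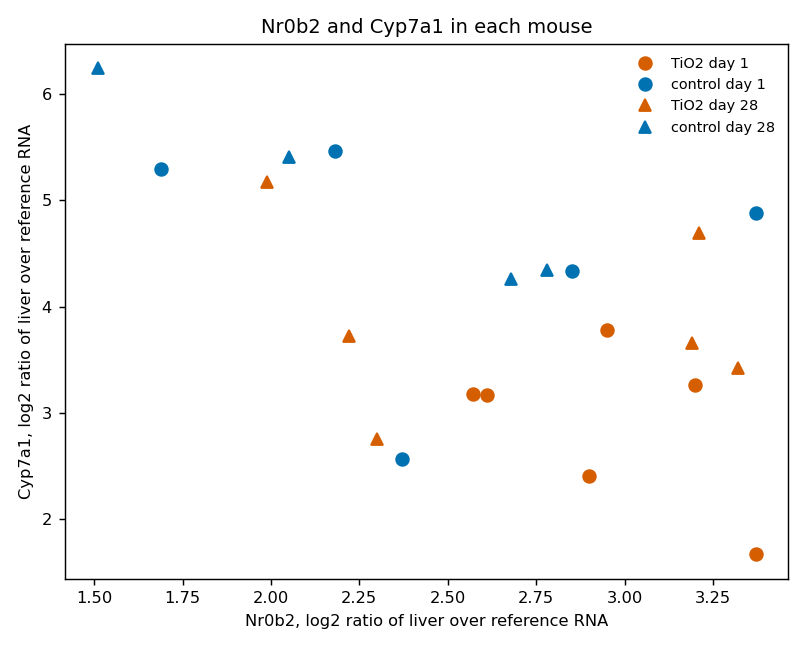
Cyp7a1 (y axis) against Nr0b2 (x axis), both as log2 ratio of liver over reference RNA, with a point for each of the 21 mice (orange TiO2, blue control, circles day 1, triangles day 28). The mouse with the lowest Nr0b2, 1.51, has the highest Cyp7a1, 6.24, and the TiO2 mouse with the highest day 1 Nr0b2, 3.37, has the lowest Cyp7a1, 1.67, but a day 1 control with the same Nr0b2 has a Cyp7a1 of 4.88.

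Of the 11102 named genes searched, those most like Cyp8b1 over the 21 mice, after centring on scan day, were Itih1 (r = 0.80), 1110032A03Rik (0.79) and Mmp15 (0.78). Those most like Nr0b2 were Gdf15 (0.79), Kdm5b (0.78) and Atg4b (0.75), and those most like Slc10a1 were Cldn3 (0.81), Galnt4 (0.80) and Scrn2 (0.79). They were picked as the highest of all genes, so no p is given, and before centring Galnt4 had an r of only 0.19 with Slc10a1.

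The other genes of the pathway gave 0 calls at an adjusted p of 0.05 in limma, in any comparison. At day 1, 1 of 13 other bile acid enzymes had an unadjusted p under 0.05, Cyp7a1, with 0 of 15 other transporters and 0 of 18 regulators. The share of all features was 1.73%. The median differences of these lists in turn were -0.026, -0.105 and -0.081. At day 28 the unadjusted counts were 1 of 13 (Cyp7a1), 0 of 15 and 0 of 18, against 0.935% of all features, with medians of -0.013, -0.064 and -0.05. With the scan day as a block the unadjusted counts at day 1 were 1, 0 and 0, against 4.09% of features. At day 28 they were 2, 0 and 1, against 3.06%. Among transporters 11 of 15 differences lay below 0 at either time, and among regulators 13 of 18, against 52.2% of all features at day 1 and 48.8% at day 28. These counts with the scan day as a block were 9 of 15 transporters at either time, and 12 of 18 regulators at day 1 and 11 of 18 at day 28.

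FXR itself, Nr1h4, averaged 4.03 in TiO2 livers and 4.30 in controls at day 1 (difference -0.28 ± 0.44 SE) and 4.14 and 4.32 at day 28 (difference -0.18 ± 0.47 SE). The differences with the scan day as a block were -0.09 ± 0.18 and -0.03 ± 0.20. It split by scan day like Abcb11, with ranges of 2.55 to 3.98 on the first scan day and 3.99 to 4.93 on the others (limma adjusted p = 3.83e-07). Fgfr4, the hepatocyte receptor of the intestinal signal Fgf15, and its partner Klb differed by -0.09 ± 0.16 and 0.00 ± 0.28 at day 1 (SE), and by -0.19 ± 0.17 and -0.03 ± 0.30 at day 28, where Klb gave 0.09 ± 0.17 and 0.08 ± 0.19 at the 2 times with the block. Cyp2c70, which makes the muricholic acids of mice, differed by -0.18 ± 0.32 at day 1 and -0.03 ± 0.34 at day 28 (SE), and by -0.05 ± 0.16 and 0.03 ± 0.17 with the block.

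Abcc2, an exporter of conjugates into bile, averaged 4.53 in TiO2 livers and 4.73 in controls at day 1, and 4.17 and 4.50 at day 28 (difference -0.33 ± 0.19 SE, 0 of 6 TiO2 mice above the control mean). Abcb4, the phospholipid flippase of the canaliculus, differed by -0.05 ± 0.24 and -0.03 ± 0.25 (SE), and with the scan day as a block by 0.06 ± 0.09 and 0.02 ± 0.10. Slc51b, a subunit of the basolateral exporter, differed by 0.02 ± 0.20 and -0.21 ± 0.22 (SE). The genes with the smallest p at day 1 after Cyp7a1 were Acox2 (difference -0.12) and Cyp46a1 (0.19) among enzymes, Slco1a1 (0.53), Abcc2 (-0.20) and Ephx1 (-0.14) among transporters, and Mafg (-0.20), Ppara (-0.24) and Rxra (-0.14) among regulators. At day 28 they were Acot8 (-0.25) and Hsd17b6 (0.24), Abcc2, Abcg2 (-0.14) and Slc51b, and, among regulators, Cebpa (0.35) and Ppargc1a (-0.32). Each of these differences had an adjusted p of 1 in limma. The day 1 difference of Slco1a1 was 1.98, -0.25 and 0.26 within the 3 scan days, and 0.005 without the first scan day.

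Between day 28 and day 1 controls, 3 of these genes had an unadjusted limma p under 0.05, each with an adjusted p of 1. They were 0 of 13 other enzymes, 2 of 15 other transporters and 1 of 18 regulators, against 3.01% of all features tested. Abcc3, a basolateral exporter of conjugates, was at 3.44 in day 28 controls and 4.00 in day 1 controls (difference -0.56 ± 0.23 SE). Ephx1 was at 1.20 and 1.53 (difference -0.33 ± 0.16 SE), and Mafg, a repressor of bile acid genes that FXR induces, at -0.22 and 0.11 (difference -0.33 ± 0.12 SE). For each of them 0 of the 4 day 28 controls lay above the day 1 mean. They were named for their small p in this comparison, so that count adds no support. Slc10a1 and Akr1d1 also had 0 of 4, without a small p in this fit. The other genes with the smallest p were Amacr (0.25), Hsd17b6 (0.40), Cyp7a1 (0.56), Abcg8 (0.29), Foxa2 (-0.23) and Nr1h3 (-0.16).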

How the data were processed

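Per the labels, Cy5 marked liver RNA and Cy3 a universal reference RNA on every array. The deposited scanner files hold spot intensities and a log10 ratio per spot from Agilent Feature Extraction 10.7.3.1, per the file headers (9.5.3.1 per the submitters' processing notes). The authors' deposited table of log2 ratios was used as an alternative: it correlated at 0.9957 to 0.9971 with ratios made here without background subtraction, so its direction is liver over reference. Its column medians were -0.058 to -0.011. Its centring is not stated.

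Median intensities were corrected with normexp (offset 50) and loess within each array in limma 3.58.1 (R 4.3.3), with control spots at weight 0. Backgrounds of the 103 to 502 marked spots per array were set to the array median. Symbols came from probe accessions through RefSeq: 23374 of 41174 probes had 1 symbol, 17800 none and 0 several. Kept probes (21405) were above background in liver on at least 50% of the arrays of a group, and the brightest probe stood for a gene. Liver probes above background numbered 12985 to 26616 per array. limma fitted 4 group means over 21 arrays, with Benjamini-Hochberg adjustment over 17640 features. The fit was tested on simulated data. The number of arrays limits the precision.

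The members and lists were chosen with earlier results of these data known. Named genes were all members, 8 fixed genes, the 3 smallest p per list and comparison, and the 3 genes most like Cyp8b1, Nr0b2 and Slc10a1. A gene that this rule names at day 28 is not reported here. Alternatives covered background, normalization, filter, scan day, slide, weights and each array left out. Headers name build mm8, and no coordinates were taken from them.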

Additional observations from a re-analysis of the deposited data

Results flagged for a closer look

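In 6 of the 40 sets of 1 gene in 1 group, a single mouse lay far from the others by Dixon's test. The nominal rate of about 1 in 20 holds for independent sets, but these sets reuse the same arrays. Each control group held only 1 array of the first scan day, and 56.6% of all features differed between scan days. The share flagged over all features was not counted, so the 6 are not shown to be an excess particular to these genes. All 6 flagged values came from arrays of the first scan day, and all were the lowest of their group. Abcb11 was at 5.28 in control day 1 replicate 1, with the next mouse at 7.10, and at 4.28 in control day 28 replicate 1, with the next at 7.24. Baat was at 5.13 in TiO2 day 1 replicate 2, with the next at 6.22. TiO2 day 28 replicate 1 was flagged for 2 genes: Cyp8b1 was at 1.24 there, with the next at 2.52, and Hsd3b7 at 3.81, with the next at 4.29. Akr1d1 was at 0.58 in control day 28 replicate 1, with the next at 0.79.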

How the results depend on the processing

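No paired analysis was possible because replicate numbers were given by deposition order and tie no mouse to another. Slides that held several groups entered as a random block and, added after seeing the data, as a fixed block. Under the 40 alternative settings tried, 0 of the 10 genes passed an adjusted p of 0.05 in any comparison. Of 1224 refitted differences of the 10 genes, 158 had the other sign from that reported, and in 5 of these 1 of the 2 values was more than 1 SE from 0. With the scanner software's own log ratio, the day 28 difference was -0.051 for Slc10a1 and -0.022 for Nr0b2. With the liver channel alone, Hsd3b7 gave 0.155 for day 28 against day 1 controls, and Fgfr4 gave 0.13 for TiO2 against control at day 28. With the scan day block besides, a setting added after seeing the data, Hsd3b7 gave 0.149 and Fgfr4 0.102, and Akr1d1 gave 0.01 for day 28 against day 1 controls. At day 28, Fgfr4 gave 0.03 without the first scan day, and Ppargc1a gave 0.081 without the second. With the slide as a fixed block, Klb gave 0.136 at day 1. The cause was not tested.

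Over all features, the day 1 comparison gave 0 calls, 3 with the slide as a random block (Saa3, Lcn2 and Saa1) and 1 with array weights (Lcn2). Leaving out 1 array gave 0 to 3, with 3 without TiO2 day 1 replicate 2. The control days gave 0 calls, 4 with array weights, and 0 to 1 with 1 array left out (1 without control day 1 replicate 4). Counts at an unadjusted p under 0.05 moved by more than 1.5 times. At day 1 they were 306, against 721 with the scan day block, 922 with the slide block, 509 with array weights, 759 without the filter, 567 without the second scan day and 200 without the third. At day 28 they were 165, against 540, 527, 633, 785, 382 and 85 in the same order, 303 with the scanner software's ratio and 253 with the liver channel alone. For the change of the effect they were 134, against 528, 478, 428, 689 and 478 without the second scan day. For the control days they were 531, against 1362, 1164, 1020, 1157 and 797 without the second scan day, 802 with the liver channel alone and 294 with only the 2 groups fitted. With the scan day block, the liver channel gave 739, 558, 537 and 1781 and the authors' deposited values 696, 537, 490 and 1391, and the fit with the slide as a fixed block 777, 501, 364 and 1264, for the 4 comparisons in that order. With 1 array left out the counts were 245 to 481, 117 to 263, 102 to 233 and 422 to 758. Normexp fitted on all spots failed on 3 arrays, which that setting left out. Dim reference spots limit the ratios of Cyp8b1, Akr1d1 and Cyp7b1, and 4 to 6 mice per group leave intervals that reach past 2-fold for Abcb11, Slc27a5 and Nr0b2, and for Cyp8b1 at day 28, and for Nr0b2 also with the scan day block.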
